A study of Homo sapiens with 3 samples.

Results

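The cytosolic ribosomal protein genes were examined on single-channel arrays of SW48 cells, a human line grown from a colorectal cancer. Members were taken by symbol: probes whose single gene symbol names an RPL or RPS protein, RPSA, or one of the stalk proteins RPLP0, RPLP1 and RPLP2, without the RPS6 kinases, RPS19BP1 and pseudogenes. This gave 111 probes of 76 genes, out of 24658 probes of 18282 genes with a single symbol. Of the 76 genes, 24 encode core proteins of the small subunit, 42 core proteins of the large subunit, and 10 are paralogs of a core protein. The 3 array samples came from cells with a DDX3 overexpression plasmid and a YAP1 knockdown plasmid (labelled DDX3+YAPsi), cells with the DDX3 plasmid alone (labelled DDX3), and cells with the empty pcDNA3.1 plasmid (vector). All 3 were stable cells selected with G418, and each group is 1 sample that, per the labels, holds 2 technical replicates. The design has no cells with the knockdown plasmid alone. With 1 sample per group no difference below has a replicate check and none was tested.

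The cytosolic ribosome is built from ribosomal RNA and the proteins of a small subunit, which reads the mRNA, and a large subunit, which joins amino acids into the chain. The proteins are needed in matched amounts, and their mRNAs belong to the TOP class, which starts with a 5′ terminal run of pyrimidines and whose translation is controlled by mTOR through the RNA-binding protein LARP1. DDX3X, an RNA helicase, is known to act in translation initiation, and YAP1 is the transcriptional coactivator of the Hippo pathway. Several ribosomal proteins are mutated in Diamond-Blackfan anaemia, and RPL5 and RPL11, which bind the 5S rRNA, can stabilise p53 by binding MDM2.

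Values are probe intensities multiplied by 1 factor per library so that the 75th percentile is the same in all 3, here called scaled intensity, and a gene takes the geometric mean of its probes. A difference is the log2 ratio of 2 libraries on that scale. A gene counted as measured when both libraries reached the median of all probes, the floor, at scaled intensities of 411 for DDX3+YAPsi, 382 for DDX3 and 378 for vector. The probes of the targeted genes did not all follow the labels. The 2 DDX3X probes differed by -1.17 and 0.23 (log2) for DDX3 against vector. The first had scaled intensities of 813, 879 and 1975 in the DDX3+YAPsi, DDX3 and vector libraries. The second, much brighter, had 48085, 57967 and 49549. The single YAP1 probe had scaled intensities of 20768 in the library labelled DDX3+YAPsi and 20279 in the library labelled DDX3. The positions of these probes were not used here, and a DDX3X probe in sequence that the plasmid does not carry says nothing of the plasmid. The libraries are therefore named by their labels, and every direction below rests on those labels. Of 12 colon epithelial markers on the array, 8 reached the floor in all 3 libraries, with KRT8, VIL1, GPA33 and CEACAM5 below it, against 1 of 5 fibroblast markers (COL1A1), 1 of 3 leukocyte markers (CD14) and none of 3 endothelial markers. In such bulk samples fewer cells of a type and less RNA per cell cannot be told apart.

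The start sites of the members carried the feature of their mRNA class. The search was for a C within 5 bases of an annotated start, on the transcribed strand, followed by 4 or more letters that are each C or T. Such a run of at least 5 pyrimidines was counted also where it is the end part of a longer stretch that begins further upstream. RefSeq promoter entries (GRCh38.p14) were matched by symbol for 65 of the 76 members, and 52 of these (80.0%) held such a run at 1 or more of their starts, against 25.2% of the 27305 genes in the table. On the opposite strand the shares were 13.8% of members and 22.3% of all genes. Of the core proteins 49 of 57 held the run, and of the paralogs 3 of 8. A match is a description of these letters and no measurement of transcription starts in SW48 cells. Shown are 60 bases around the start, 40 before it and 20 after, 5′ to 3′ on the gene's strand. Capitals mark the run from the first such C in the window. In RPL14, RPL13A and RPL36AL the pyrimidine stretch holds a further C upstream of the capitals. The first set holds members at the upper end of the differences for DDX3 against vector (RPL14, RPS16, RPL35) and at the lower end (RPSA, RPL13A, RPS9).
RPL14, chr3:40457299-40457358, plus strand: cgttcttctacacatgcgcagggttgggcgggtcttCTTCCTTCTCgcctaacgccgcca
RPS16, chr19:39435930-39435989, minus strand: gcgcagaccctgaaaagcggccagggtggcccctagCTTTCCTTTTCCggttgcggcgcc
RPL35, chr9:124861938-124861997, minus strand: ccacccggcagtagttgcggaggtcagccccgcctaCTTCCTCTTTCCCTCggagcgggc
RPSA, chr3:39406680-39406739, plus strand: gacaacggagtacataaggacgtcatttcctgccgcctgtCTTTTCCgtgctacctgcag
RPL13A, chr19:49487568-49487627, plus strand: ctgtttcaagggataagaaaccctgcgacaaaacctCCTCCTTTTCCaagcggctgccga
RPS9, chr19:54200818-54200877, plus strand: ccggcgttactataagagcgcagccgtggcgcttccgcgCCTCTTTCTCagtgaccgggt

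These 6 were chosen among members that hold a run. RPS26 and RPS29, also among the 6 highest, hold none in the table. The second set pairs a core protein with its paralog. RPL26L1 and RPS27L hold no such run at the start shown, while RPL36AL, like RPL36A, does.
RPL26, chr17:8383174-8383233, minus strand: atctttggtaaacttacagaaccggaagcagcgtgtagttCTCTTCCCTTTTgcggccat
RPL26L1, chr5:172958689-172958748, plus strand: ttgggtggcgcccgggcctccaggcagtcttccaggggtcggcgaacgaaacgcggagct
RPS27, chr1:153990722-153990781, plus strand: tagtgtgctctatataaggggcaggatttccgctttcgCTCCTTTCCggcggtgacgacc
RPS27L, chr15:63157458-63157517, minus strand: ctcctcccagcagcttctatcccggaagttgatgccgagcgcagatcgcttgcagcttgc
RPL36A, chrX:101390971-101391030, plus strand: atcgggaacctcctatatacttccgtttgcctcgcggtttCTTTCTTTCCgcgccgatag
RPL36AL, chr14:49620607-49620666, minus strand: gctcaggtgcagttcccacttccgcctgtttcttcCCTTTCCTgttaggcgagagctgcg

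Most members gave a bright signal. At or above the floor in all 3 libraries were 65 of the 76 members, beside 9728 of all 18282 genes. The other 11 members lay below it in all 3. Below the floor were the core proteins RPL3, RPL7A, RPL10, RPL24, RPL27A, RPLP0 and RPS7, the paralogs RPL10L, RPL22L1 and RPL39L, and 1 Y-linked copy of RPS4X. These core genes are parts of every ribosome, and each was read by 1 probe. RPL24 had scaled intensities of 45.7, 39.2 and 40.3 and RPLP0, a stalk protein, 286, 322 and 298 in the DDX3+YAPsi, DDX3 and vector libraries. RPL10, a joining-surface protein of the large subunit, had 282, 267 and 158. Its log2 difference was 0.75 in DDX3 against vector and 0.84 in DDX3+YAPsi against vector, but every one of these values is under the floor, so it was left out of the counts. At the bright end, 47 of the 111 member probes exceeded the ceiling of a 16-bit scan in the deposited values of at least 1 library, out of 539 such probes in the whole table. The sources used here do not say how values above the ceiling were obtained. The single probe of RPL8 was above it in all 3 libraries. The single probes of RPL30, RPL35, RPLP2, RPS4X and RPS12 were below it in DDX3+YAPsi and above it in DDX3 and vector. That of RPL5 was above it in vector alone. A probe each of RPL4, RPL13, RPL17, RPS6, RPS13 and RPS24 crossed it in the first way, and a probe of RPL13A in the second. Their differences between libraries on opposite sides of it therefore cross the ceiling. Ribosomal protein genes have many near-identical pseudogene copies, and 29 further probes that name a ribosomal protein gene together with other symbols were left out.

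No ribosomal protein gene differed by 2-fold between any pair of libraries. Such differences were rare on the whole array. With DDX3 set against vector, 0.183% of 9863 measured genes passed 2-fold upward and 0.152% downward. With DDX3+YAPsi set against DDX3 the shares were 0.112% upward and 0.163% downward, and with DDX3+YAPsi set against vector 0.274% upward and 0.203% downward. All of these shares of 65 genes are less than 1 gene, so the count of 0 is near the background. The range of a member over the 3 libraries had a median of 0.25 (log2), against 0.32 over the 9728 genes measured in all 3. A range below 0.2 was seen for 24 of 65 members (36.9%) and for 24.0% of all these genes. RPS14, a 40S protein whose loss is part of the 5q- syndrome, had scaled intensities of 64563, 64021 and 65040 in the DDX3+YAPsi, DDX3 and vector libraries. Its probes parted and cancelled in this gene value, at -0.17 and 0.19 for DDX3+YAPsi against DDX3 and at 0.06 and -0.10 for DDX3 against vector. The brighter of them was above the scan ceiling in all 3 libraries. RPS21 had 228520, 235735 and 229485, and RPL31 had 2734, 2785 and 2829. These 3 genes lay within 0.05 (log2) over the libraries. RPS19, the gene most often mutated in Diamond-Blackfan anaemia, had 700, 687 and 663, a range of 0.08, from 1 probe not far above the floor.

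Between the libraries labelled DDX3 and vector the members spread evenly around the rest of the array. Their median difference was -0.01, and that of all measured genes was -0.01. Higher by any amount were 29 of 65 members (44.6%), against 48.8% of all measured genes. The 23 measured small subunit proteins had a median of -0.01 with 11 above 0, and the 36 measured large subunit proteins had -0.00 with 17 above 0. At least 1.5-fold lower was 1 member, RPL8, where 1.86% of all measured genes were. None was 1.5-fold higher, where 1.73% of all measured genes were. RPL8, a large subunit protein near the peptidyl transferase centre, had scaled intensities of 273485 in the DDX3 library and 446230 in the vector library, 1.63-fold lower in DDX3 (log2 difference -0.71), and 331883 in the DDX3+YAPsi library.

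The other low members in this comparison were RPSA, RPL13A, RPS9, RPS10 and RPL11. RPSA, a 40S protein also known as the laminin receptor, had 3183 in DDX3 and 4527 in vector (-0.51). RPL13A, a part of the interferon-gamma activated inhibitor of translation, had 96682 in DDX3 and 131645 in vector (-0.45), and both of its probes were lower, by -0.57 and -0.32. RPS9 had 82202 and 108142 (-0.40), RPS10 5076 and 6441 (-0.34) and RPL11 196917 and 249526 (-0.34) in DDX3 and vector. The high members were RPL14, RPL41, RPS16, RPL35, RPS26 and RPS29. RPL14, a large subunit protein, had 3716 in DDX3 and 2615 in vector (0.51), and RPL41, the smallest ribosomal protein, had 664 and 500 (0.41). The single RPL41 probe lay not far above the floors of 382 in DDX3 and 378 in vector. RPS16 had 213282 and 165615 (0.36) and RPL35 had 70007 and 54907 (0.35). RPS26, which sits at the mRNA exit site, had 17018 and 13521 (0.33), and RPS29 had 238384 and 192104 (0.31). High and low members came from both subunits.

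**Figure D1:**
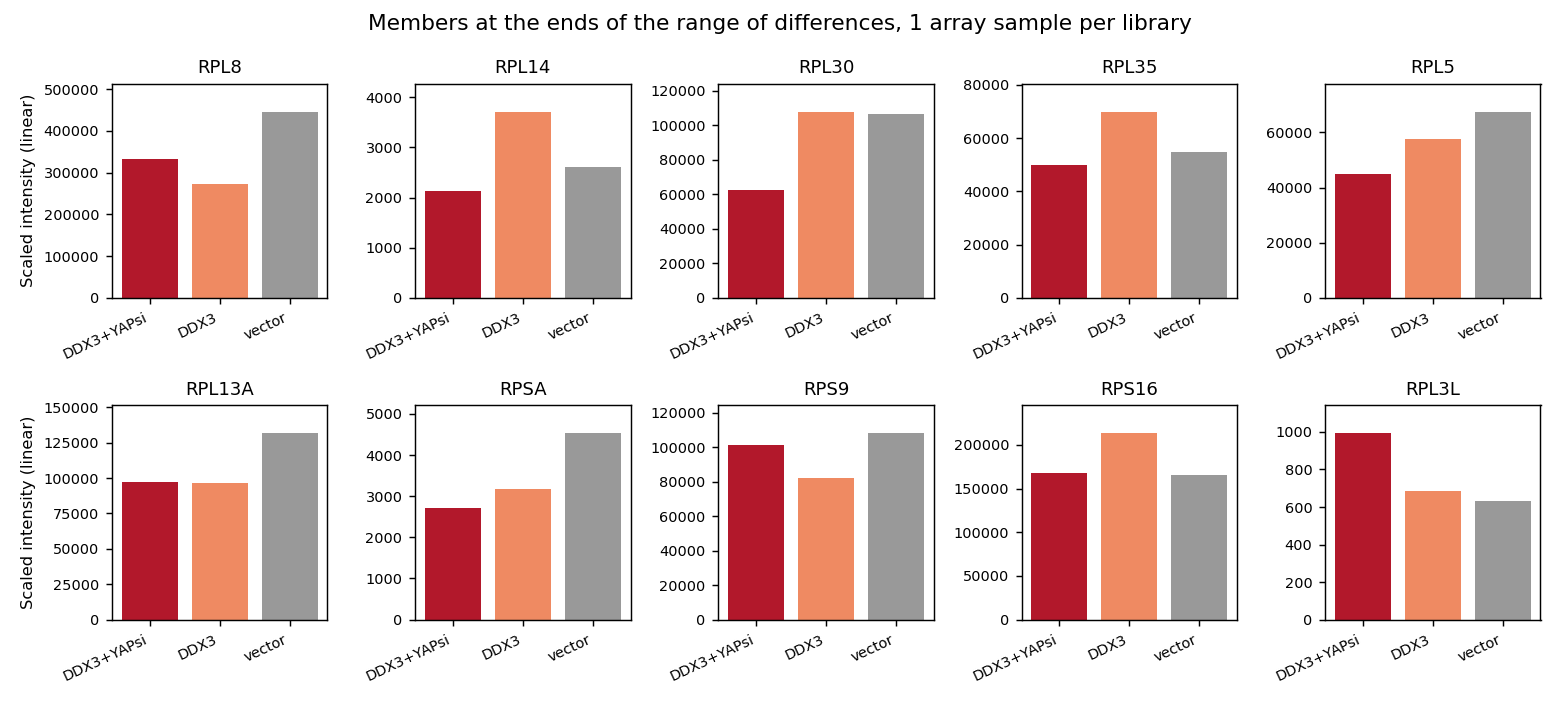
Scaled intensity (linear axis from 0, a separate scale for each gene) of 10 members in the DDX3+YAPsi, DDX3 and vector libraries, 1 array sample each, so there are no error bars. RPL14 and RPL35 are highest in the DDX3 library, RPL8 and RPS9 are lowest there, RPL30 is lowest in the DDX3+YAPsi library, and RPL5 and RPSA are lowest in the DDX3+YAPsi library and highest in the vector library.

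Between the libraries labelled DDX3+YAPsi and DDX3 the members were slightly lower than the rest. Their median difference was -0.04, against 0.02 over all measured genes, and 38 of 65 members lay below 0 (58.5%), against 47.4% of all measured genes. Above 0 were 27 members (41.5%), against 52.6% of all measured genes. With each library centred on its median instead, 21.5% of members and 38.9% of all measured genes lay above 0. Below the median of all measured genes, a count that does not move with 1 factor per library, were 42 of 65 members (64.6%). This share was 56.9% under quantile normalization and under lowess centring, and 56.8% of the 37 members left without probes above the scan ceiling, where the median minus that of all genes was -0.03, against -0.07 in the main setting. The median was -0.11 for the small subunit, with 14 of 23 below 0, and -0.05 for the large subunit, with 22 of 36 below 0. At least 1.5-fold lower were RPL14 and RPL30, 2 of 65 members, where 2.5% of all measured genes were, and none was 1.5-fold higher, where 2.43% were. RPL14 had 2123 in DDX3+YAPsi and 3716 in DDX3, 1.75-fold lower (-0.81), and 2615 in vector. RPL30, a large subunit protein known in yeast to bind a kink-turn in its own transcript, had 62629 in DDX3+YAPsi and 107976 in DDX3, 1.72-fold lower (-0.79), and 106680 in vector. As deposited its probe read 46543 in DDX3+YAPsi, 117051 in DDX3 and 132421 in vector, on both sides of the scan ceiling. RPL14 was thus highest in the DDX3 library and lowest in the DDX3+YAPsi library, while RPL30 was low in the DDX3+YAPsi library alone.

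RPL35 had 49892 in DDX3+YAPsi and 70007 in DDX3 (-0.49), RPLP2, a stalk protein that recruits elongation factors, 86571 and 116875 (-0.43), RPL41 498 and 664 (-0.41) and RPL9 17977 and 23718 (-0.40). Both RPL9 probes were lower, by -0.45 and -0.35. RPS6, the 40S protein phosphorylated by S6 kinase, had 44603 in DDX3+YAPsi and 56251 in DDX3 (-0.33), with its probes at -0.42 and -0.25. At the upper end were the paralog RPL3L (0.53), RPL38 (0.37), RPS20 (0.34), RPS9 (0.30) and RPL8 (0.28). All of them turned their sign without scaling. RPL38, known for its part in the translation of Hox mRNAs in the mouse, had 6092 in DDX3+YAPsi and 4721 in DDX3. Its probes differed by 0.68 and 0.06, and the probe at 0.68 was the dim one, with scaled intensities of 284 and 177 in these libraries. RPS20 had 696 and 549, with probes at 0.36 and 0.32, the first of them under the floor in DDX3 at 341. This comparison shares the DDX3 library with the one before it. RPL8, RPS9, RPL14, RPL35, RPL41, RPS16, RPS26 and RPS29 differed in opposite directions in the 2 comparisons, which are not independent.

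Between the libraries labelled DDX3+YAPsi and vector most members were lower by a small amount. The median difference was -0.10, against 0.02 over all measured genes, and 47 of 65 members lay below 0 (72.3%), against 47.8% of all measured genes. Below the median of all measured genes were 48 of 65 members (73.8%). The subunits were alike in this, with a median of -0.09 and 17 of 23 below 0 for the small subunit and -0.12 and 26 of 36 below 0 for the large subunit. In the DDX3+YAPsi library 33 of 65 members had their lowest value of the 3 libraries (50.8%), against 34.7% of all genes measured in all 3. The vector library held the highest value for 30 members (46.2%), against 31.7% of all genes. The DDX3+YAPsi array was also the dimmest as deposited, with 75th percentiles of 1710 for DDX3+YAPsi, 2495 for DDX3 and 2856 for vector. The summed scaled intensity of the 12 colon epithelial markers was 182971 in DDX3+YAPsi, 192601 in DDX3 and 192765 in vector, and of the 8 measured in DDX3+YAPsi against vector 4 were above and 4 below 0. The sums of the other cell types' markers, most of them under the floor, were higher in DDX3+YAPsi than in vector. They were 3054 and 2722 for fibroblast, 1682 and 1350 for leukocyte, and 1155 and 805 for endothelial markers in these libraries. These sums carry the scaling factors of 1.35 for DDX3+YAPsi and 0.806 for vector, and all 3 samples are of the SW48 line. The part of brightness and of cell makeup in the members' lower values was not tested. When each library was centred on its median instead of its 75th percentile, 12.3% of members and 37.7% of all measured genes lay above 0, against 27.7% and 52.2% in the main setting. When differences were centred along mean level by lowess, the members' median minus that of all genes was -0.06, and in the main setting it was -0.11.

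At least 1.5-fold lower in that comparison were RPL30 and RPSA, where 2.91% of all measured genes were. RPL30 was 1.70-fold lower (-0.77), and RPSA had 2713 in DDX3+YAPsi and 4527 in vector, 1.67-fold lower (-0.74). RPL5 had 45081 in DDX3+YAPsi and 67529 in vector (-0.58), with 57674 in DDX3, just inside the 1.5-fold limit at 1.498-fold. RPL11, its partner in the 5S particle, had 215288 in DDX3+YAPsi and 249526 in vector (-0.21). RPL13A had 97123 in DDX3+YAPsi and 131645 in vector (-0.44), with its probes at -0.46 and -0.41. RPL8 was at -0.43 and RPL17, a protein at the peptide exit tunnel, at -0.36, with RPL17 probes from -0.71 to -0.05. The highest were RPL3L, at least 1.5-fold higher where 3.4% of all measured genes were, RPL23 (0.37), RPL35A (0.21), RPL38 (0.19) and RPS20 (0.19). All of them turned their sign without scaling. The brighter RPL38 probe alone was at -0.15. RPL23, which can bind MDM2, had 4416 in DDX3+YAPsi and 3413 in vector.

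**Figure D2:**
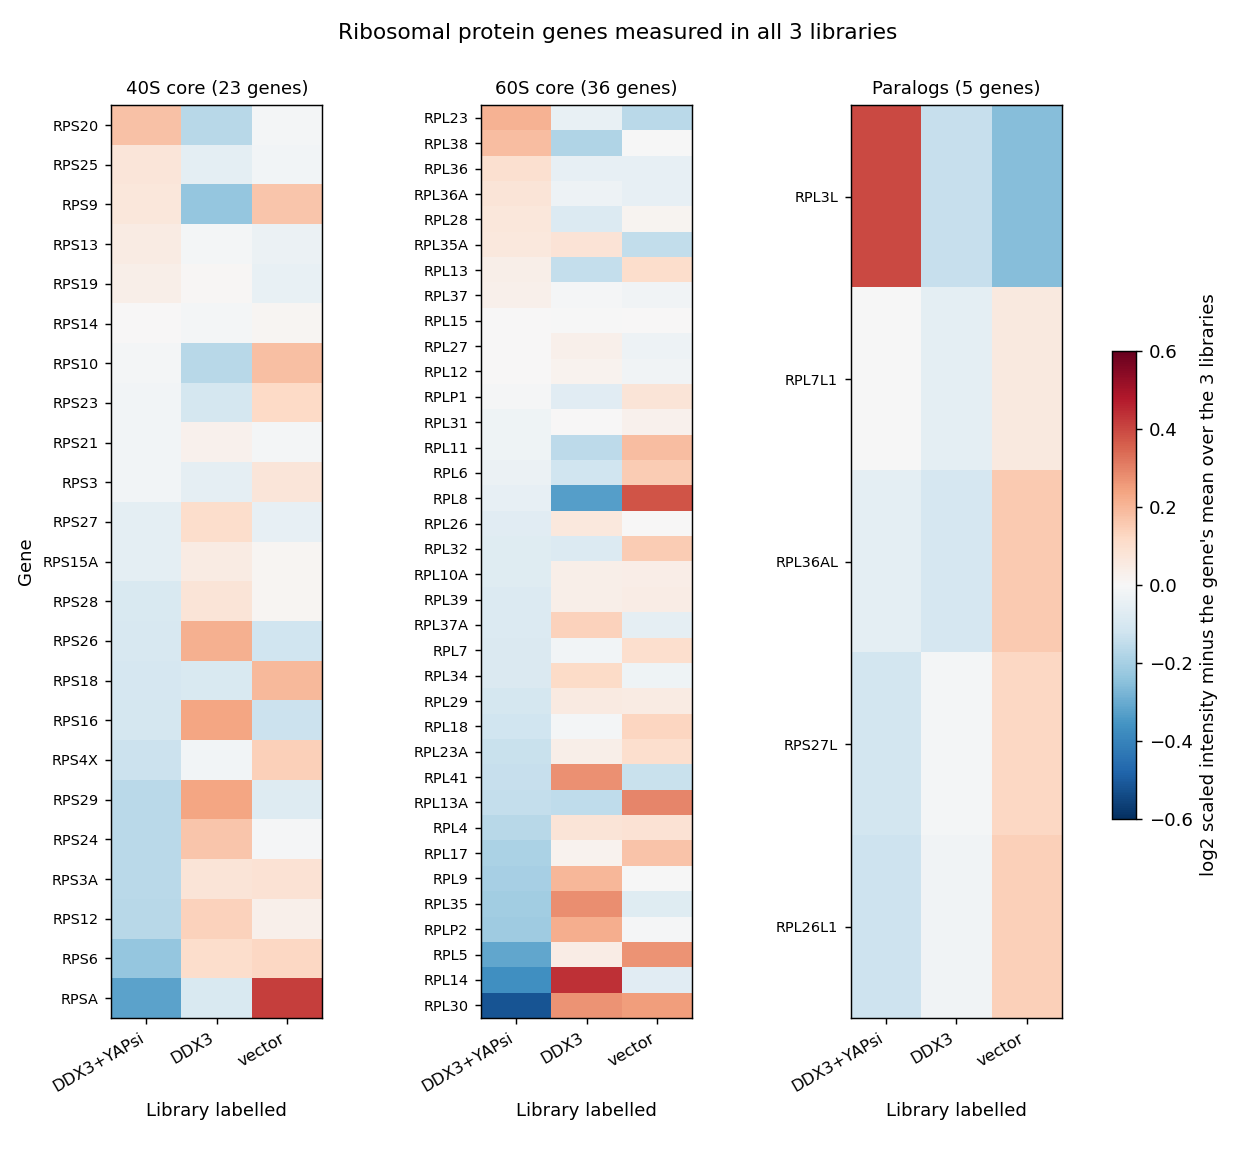
Log2 scaled intensity of each gene minus its mean over the 3 libraries (colour), for the members measured in all 3 libraries, with genes down the page by class and the DDX3+YAPsi, DDX3 and vector libraries across. The Y-linked paralog is not drawn. The DDX3+YAPsi column holds the lowest value for 33 of the 65 members, and no gene differs by 2-fold between libraries.

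**Figure D3:**
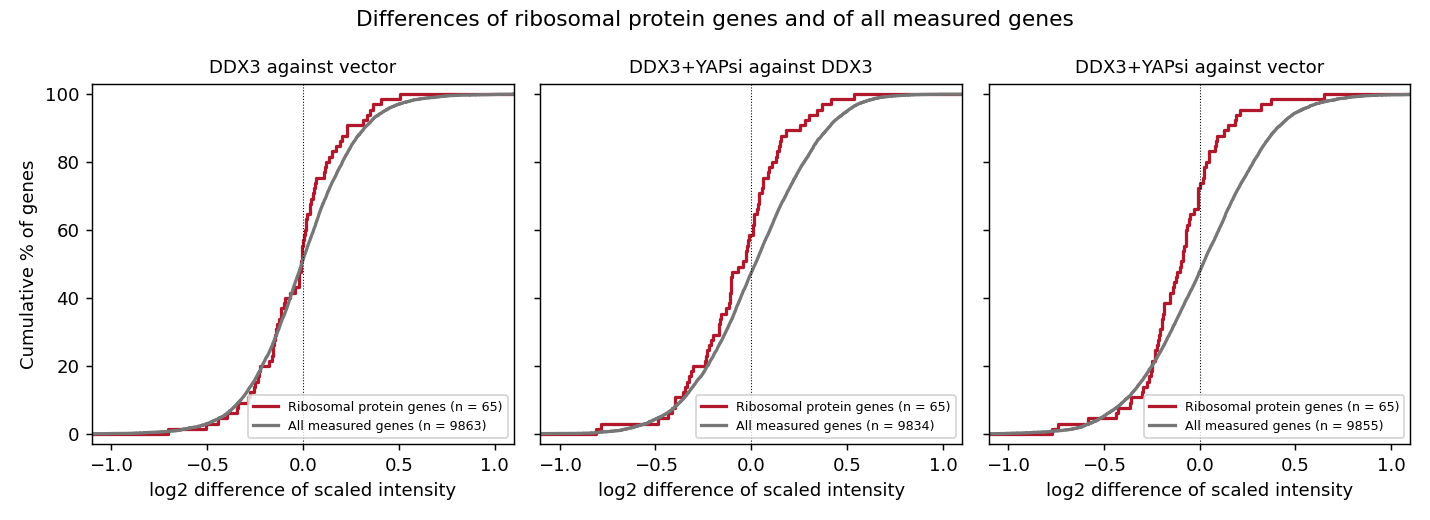
Cumulative percent of genes against the log2 difference of scaled intensity for the 65 measured ribosomal protein genes and for all measured genes, 1 panel per comparison. With DDX3 set against vector the curves cross near 0, and with DDX3+YAPsi set against vector the members' curve lies to the left of that of all genes over its middle part, with medians of -0.10 and 0.02.

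Members with several probes show how far 2 readings of 1 mRNA on the same arrays can part. There were 27 such members with 62 probes. The SD of the log2 difference between probes of 1 gene, pooled over these members, was 0.27 with DDX3 set against vector, 0.27 with DDX3+YAPsi set against DDX3, and 0.24 with DDX3+YAPsi set against vector. Over all 5438 genes with several probes, whether or not they reached the floor, it was 0.30, 0.29 and 0.32. This is an error between probes on the same array and leaves out any spread between samples. The floor was applied to genes and not to single probes, so dim probes below it, such as 1 of RPL38, enter this SD. The SD over all 65 measured members was 0.22, 0.25 and 0.23, no larger than that between probes of 1 gene. Within 1 such SD of 0 lay 51, 46 and 48 of the 65 members. Beyond 2 of them were RPL8 in the first comparison, RPL14, RPL30 and RPL3L in the second, and RPL30, RPL3L, RPL5 and RPSA in the third. Each of these genes rests on 1 probe. Members with 1 probe had an SD of 0.26, 0.27 and 0.26, and members with 2 or 3 probes, whose values are means, had 0.16, 0.22 and 0.18.

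Probes of 1 gene pointed in opposite directions for 15, 13 and 15 of the 27 members. This was not counted over all genes, and neither was the agreement of probes given below. RPL37 had the widest range in each comparison, with probes at -0.71, 0.33 and 0.41 for DDX3 against vector and a gene value of 0.01. RPL15, a protein of the large subunit core, had the smallest range over the libraries, with 2743, 2730 and 2736 in the DDX3+YAPsi, DDX3 and vector libraries, but its probes stood at -0.25 and 0.24 for DDX3 against vector and cancelled. In a few genes all probes agreed in sign and each lay at least 0.2 from 0. These were RPL13A (lower) and RPL9 (higher) for DDX3 against vector, RPL9 and RPS6 (lower), RPS20 and a Y-linked paralog (higher) for DDX3+YAPsi against DDX3, and RPL4, RPL13A, RPL18 and RPS6 (lower) for DDX3+YAPsi against vector. None was higher in this last comparison. The 3 probes of RPL4, a protein that lines the exit tunnel, lay between -0.27 and -0.23 there, and the gene had 119458 in DDX3+YAPsi and 142475 in vector. The 2 probes of RPL18 stood at -0.27 and -0.23 and those of RPS6 at -0.40 and -0.32. RPS20 and the Y-linked paralog, named above as higher, each had 1 probe under the floor in the DDX3 library.

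**Figure D4:**
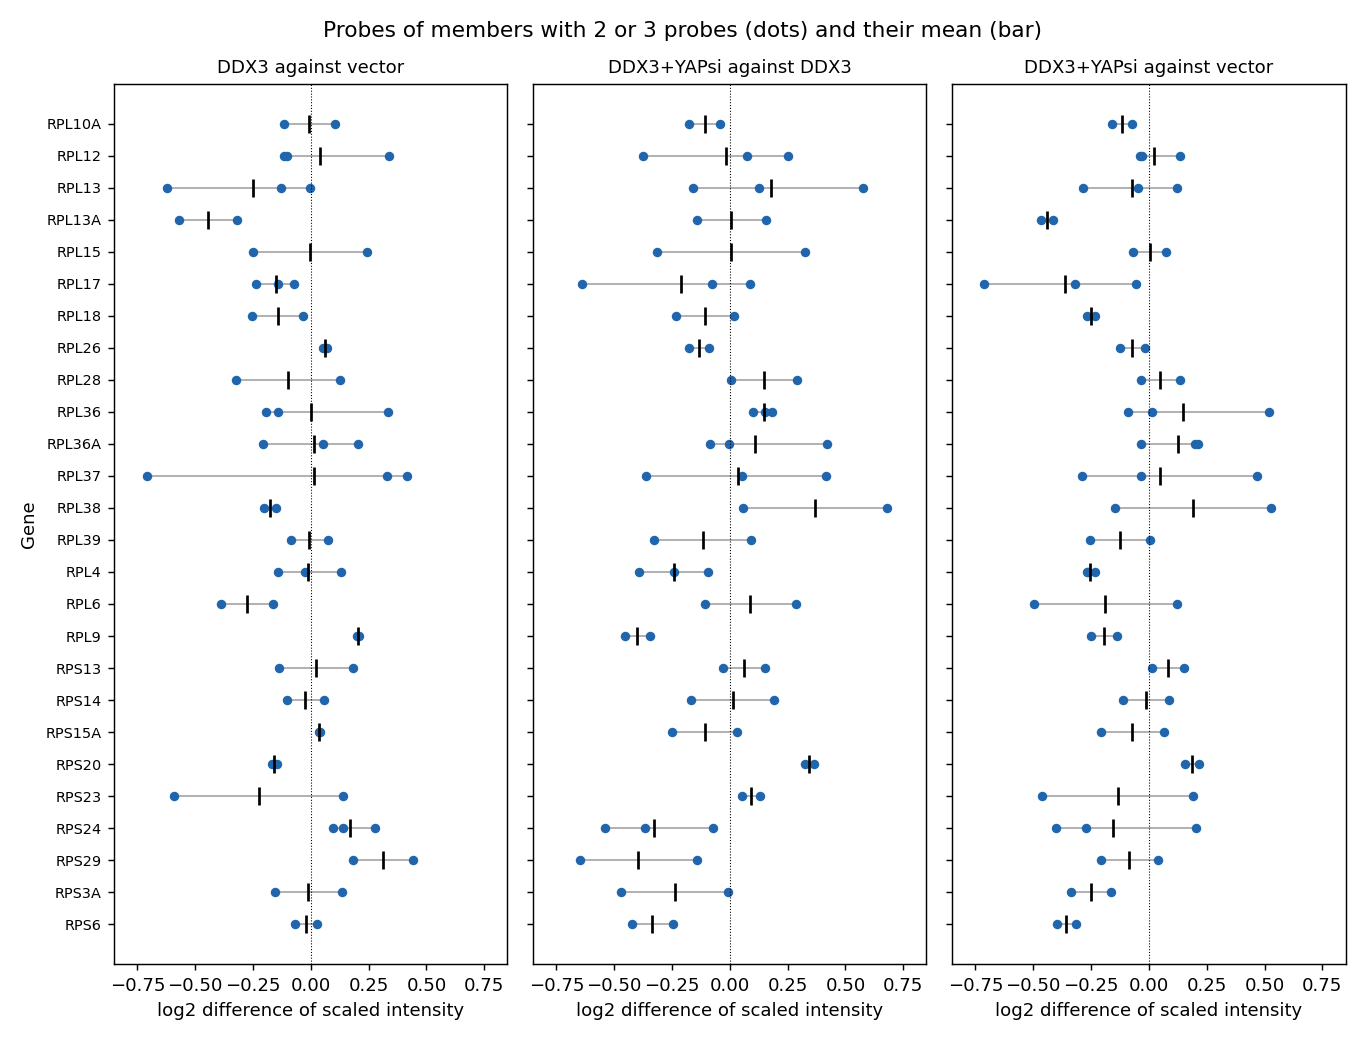
Log2 difference of scaled intensity of each probe (dots) of the members with 2 or 3 probes, with the gene mean (black bar), in the 3 comparisons; the Y-linked copy is not drawn. The probes of RPL37 spread from -0.71 to 0.41 for DDX3 against vector, while those of RPL4 lie between -0.27 and -0.23 for DDX3+YAPsi against vector.

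Among the paralogs, 4 of the 6 measured had their highest value in the vector library, beside 46.2% of all measured members and 31.7% of all genes. RPL26L1, a near-identical copy of RPL26, had scaled intensities of 35038, 37676 and 42137 in the DDX3+YAPsi, DDX3 and vector libraries, and differed by -0.27 for DDX3+YAPsi against vector, where RPL26 was at -0.07. RPS27L, a known p53 target, had 35977, 38521 and 42339 and differed by -0.23, where RPS27 was at -0.01 with 189284 and 190504. RPL36AL had 40662, 39512 and 47260 and differed by -0.22, where RPL36A was at 0.13. Each of these 3 paralogs rests on 1 probe. RPL7L1, a nucleolar relative of RPL7, had 10479, 10066 and 10909 and lay within 0.12 over the libraries. RPL3L, a paralog of striated muscle, had 993 in DDX3+YAPsi, 685 in DDX3 and 632 in vector, while RPL3 was below the floor. The RPL3L differences were 0.53 for DDX3+YAPsi against DDX3 and 0.65 against vector. As deposited its single probe read 738 in DDX3+YAPsi, 743 in DDX3 and 785 in vector, so these differences rest on the scaling. Over the 6 measured paralogs the medians were -0.13 in DDX3 against vector, 0.05 in DDX3+YAPsi against DDX3, and -0.14 in DDX3+YAPsi against vector. Among measured core members, the 42 with a pyrimidine run at a RefSeq start had medians of -0.01, -0.04 and -0.09 in these comparisons, and the 8 without one 0.03, -0.16 and -0.14, so the order of these sets was not the same throughout.

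Of the members listed for Diamond-Blackfan anaemia, 16 were measured. Their median in DDX3 against vector was 0.06, with 10 above 0 where 48.8% of all measured genes were, and RPL35 (0.35) and RPS10 (-0.34) at the ends. In DDX3+YAPsi against DDX3 it was -0.12, with 12 below 0 where 47.4% of all measured genes and 58.5% of all members were, and RPS10 (0.15) and RPL35 (-0.49) at the ends. In DDX3+YAPsi against vector it was -0.08, with 11 below 0 where 47.8% of all measured genes and 72.3% of all members were, and RPL35A (0.21) and RPL5 (-0.58) at the ends. FAU, which encodes a 40S protein fused to a ubiquitin-like domain and does not carry an RPS symbol, had 152950, 143883 and 150879 in the DDX3+YAPsi, DDX3 and vector libraries and lay within 0.09.

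The other genes of the pathway are given beside the members. Over all measured genes 48.8% were above 0 in DDX3 against vector, 47.4% below 0 in DDX3+YAPsi against DDX3, and 47.8% below 0 in DDX3+YAPsi against vector. Of 40 measured ribosome biogenesis factors, 32 were below 0 for DDX3+YAPsi against DDX3 with a median of -0.15, and 28 were above 0 for DDX3 against vector with a median of 0.07. For DDX3+YAPsi against vector 26 were below 0 with a median of -0.14. UTP18, a protein of the small subunit processome, had 9381 in DDX3+YAPsi and 16133 in DDX3 (-0.78). LTV1, an export factor of the small subunit, was at -0.76, the nucleolar GTPase GNL3 at -0.69 and the helicase DDX18 at -0.67. NMD3, the export adaptor of the large subunit, had 1083 in DDX3+YAPsi and 2094 in vector (-0.95). Each of these 5 genes rests on 1 probe. Of 11 genes of RNA polymerase I and its factors, 8 were above 0 for DDX3 against vector with a median of 0.23, and 8 were below 0 for DDX3+YAPsi against DDX3 with a median of -0.14. UBTF, an initiation factor of RNA polymerase I, was at -0.50 and 0.43 in these. Both comparisons use the DDX3 library.

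Of 16 measured elongation and other TOP mRNA genes, 13 were below 0 for DDX3+YAPsi against vector with a median of -0.19, where 47.8% of all measured genes were below 0. Of these genes, EIF3E, EIF3H, EIF3L, EIF4A2 and EIF4B are also counted among the translation initiation factors below. EEF1A1, which brings aminoacyl-tRNA to the ribosome, had 19148 in DDX3+YAPsi and 29670 in vector (-0.63), EIF3L was at -0.53 and EIF3H at -0.37, while EEF2, the translocation factor, was at 0.39 with 138999 and 106302. PABPC1, the poly(A)-binding protein, had 10660 in DDX3 and 16042 in vector (-0.59). Growth signalling genes had no common direction, with medians of 0.04, 0.02 and 0.14 in the 3 comparisons. MYC had 6271 in DDX3+YAPsi, 6009 in DDX3 and 4472 in vector (0.49 and 0.43 against vector), LARP1 was at 0.48 for DDX3+YAPsi against vector, and AKT1 was at -0.90. For the mitochondrial ribosomal proteins, 55 of 70 measured genes were below 0 for DDX3+YAPsi against vector with a median of -0.17, beside -0.10 for the cytosolic ones. For the translation initiation factors 22 of 44 were below 0 in that comparison with a median of 0.00, again beside 47.8% of all measured genes. In DDX3 against vector 32 of the 44 were above 0 with a median of 0.08, beside 48.8% of all measured genes. In DDX3+YAPsi against DDX3 27 of the 44 were below 0 with a median of -0.12, beside 47.4% of all measured genes. The differences between these lists were not tested.

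**Figure D5:**
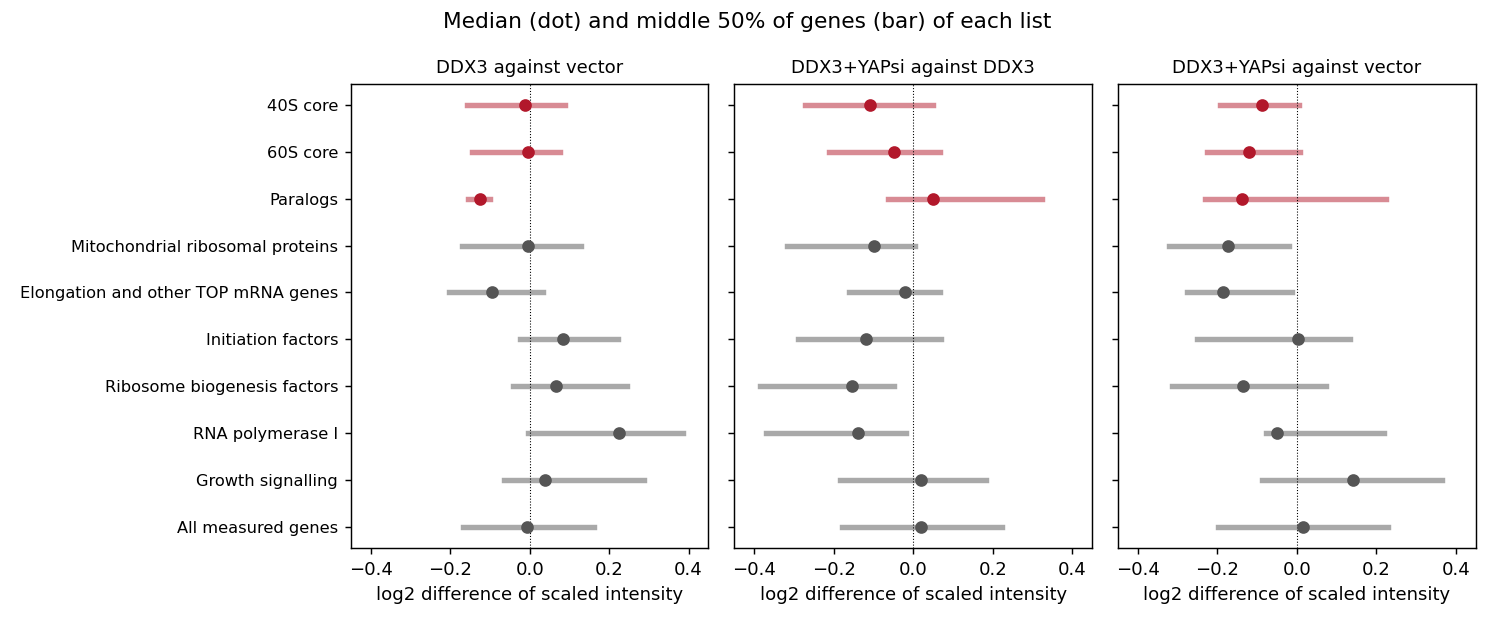
Median (dot) and middle 50% of genes (bar) of the log2 difference of scaled intensity for each list in the 3 comparisons, with core and paralog ribosomal proteins in red and other lists in grey. Medians of the 40S and 60S core proteins lie between -0.12 and -0.00, and that of the ribosome biogenesis factors is -0.15 for DDX3+YAPsi against DDX3.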

How the data were processed

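Total RNA was amplified and labelled with Cy5, per the labels' protocols. The authors deposited 1 table of linear probe intensity for 3 samples. For background correction, array scaling and the handling of the 2 technical replicates the sources used here give nothing. Of 31741 probes, 24658 had 1 symbol in the platform annotation, 1002 had several and 6081 none given there, and only the first kind was used. Each library was scaled to a common 75th percentile (factors 1.35 for DDX3+YAPsi, 0.922 for DDX3 and 0.806 for vector), log2 was taken, probes of a gene were averaged, and genes with both libraries at or above the 50th percentile of probes were counted. A difference of 2-fold was the threshold, with 1.5-fold as an alternative. With 1 sample per group no test was made, and the number of arrays limits the precision. The members and gene lists were chosen with earlier results of these data known. Named are, per comparison, the 6 highest and 6 lowest measured members, members past the threshold, and up to 4 genes of each other list; members named for steadiness or agreeing probes were picked with their values in view. The calculations were tested on simulated data. Python 3.11.15, pandas 2.3.3 and statsmodels 0.14.6 were used. The values of the Y-linked members are counted but not listed. Gene symbols UTP4, POLR1G and AFG2A were matched through older names in RefSeq.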

Additional observations from a re-analysis of the deposited data

How the results depend on the processing

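The summary values over all members and the values of the named highest and lowest members were recomputed under other scalings, floors, probe rules and members. Values of subunits, paralogs, other lists, library order and probe spread were not. The members' median relative to all measured genes stayed between -0.05 and 0.01 for DDX3 against vector, between -0.12 and -0.03 for DDX3+YAPsi against DDX3, and between -0.20 and -0.06 for DDX3+YAPsi against vector. Without scaling the DDX3+YAPsi medians were -0.59 against DDX3 and -0.84 against vector, beside medians of all genes of -0.52 and -0.72, and the share of members above 0 was 13.8% for DDX3 against vector and 0% in the other comparisons. With median scaling the DDX3+YAPsi shares were 21.5% against DDX3 and 12.3% against vector. Without scaling 3 members were at least 2-fold lower in DDX3+YAPsi than in DDX3 and 11 than in vector. At 1.5-fold, 1 member was lower for DDX3 against vector, 2 were lower for DDX3+YAPsi against DDX3, and 1 was higher and 2 were lower for DDX3+YAPsi against vector. In every other setting run no member passed 2-fold. Of 36 values of named members, 12 turned their sign without scaling and 0 did under median scaling, quantile normalization or lowess centring. With the brightest probe, which can alter only genes with several probes, RPL38 for DDX3+YAPsi against vector turned (-0.15). Floors and the choice of members cannot alter a gene's own value. A change was judged against the SD between probes of 1 gene, since there are no replicates. No paired analysis was possible because each group has 1 sample. Dim probes limit 11 members, and the handling of values above the scan ceiling limits the brightest.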
